A study of Phyllostachys nigra with 21 samples.

Results

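Culms of black bamboo (Phyllostachys nigra, Pn) kept at 4 °C for 25 days (LT25d) were compared with culms kept at 4 °C for 15 days (LT15d). The comparison holds 6 of the 21 libraries of the series, 3 per group, and was chosen by the day and treatment in the sample labels. Potted Pn, grown from transplanted rhizomes in a greenhouse, had gone into chambers at 4 °C (LT) or 25 °C (RT) while the young culms were still green. RNA of culm tissue was sequenced before treatment (CK) and after 1, 15, and 25 days. The labels name the species but no line, transgene, or added agent for any group. By label, LT15d and LT25d share the plant material, the tissue, and the chamber temperature and differ in the length of the treatment. Read quality, as given by the authors, differed too, with a higher GC content and a larger share of valid reads in all LT15d libraries. The day 15 libraries of both temperatures had the lowest share of high-quality bases (Q30) of the series. No sequencing batch is named, and its part was not tested. Nothing in the labels or methods tells how plants were divided over the 3 libraries of a group. RT15d and RT25d, the culms at 25 °C on the same days, are used here to show which changes of those 10 days also took place without cold.

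In grasses, the first weeks at a low but non-freezing temperature are known for the build-up of soluble sugars, of dehydrins and other late embryogenesis abundant (LEA) proteins that keep membranes and enzymes in shape, and of phenolic compounds made from phenylalanine. Phenylalanine ammonia-lyase (PAL) opens the phenylpropanoid pathway, which leads to lignin, flavonoids, and coumarins, whereas tryptophan decarboxylase opens the route to serotonin. Light harvesting proteins, ribosomal proteins, and chaperones usually follow the rate of growth and the demand on photosynthesis and protein folding. Gene names below are those of the best match in another species as the files give them, and the roles are those known for the matched proteins, mostly from rice, maize, and Arabidopsis.

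Levels are given as FPKM, fragments scaled by transcript length and library size, and fold changes as edgeR's log2 fold change with its SE, scaled by the trimmed mean of M-values (TMM). A gene was called (a differentially expressed gene, DEG) at an adjusted p of at most 0.05 and a fold change of at least 2. LT15d libraries hold 44726468 to 49887642 counts each and LT25d libraries 42779971 to 48386147. The 100 most abundant genes held 12.99% ± 0.035 of the counts in LT15d and 9.29% ± 0.046 in LT25d (mean ± SD, n = 3), and 23942 to 23980 genes reached 1 FPKM in LT15d against 25779 to 25785 in LT25d. TMM factors were 0.836 to 0.841 in LT15d and 1.14 in LT25d, so that a log2 fold change lies about 0.44 below the log2 ratio of the FPKM values. Replicates lay very close together: the median coefficient of variation of abundant genes was 2.51% in LT15d and 2.56% in LT25d, against 8.95% to 23.3% in CK, LT1d, RT1d, and RT25d. With 1 read pair taken as 4 counts, the spread within both groups was 1.43 to 1.56 times counting noise and may be technical. That count per pair is an assumption from the steps of the low counts. The p-values rest on 1 spread per gene, estimated over all 21 libraries. They thus mix the close groups with the wider ones and measure only the spread between libraries. A further fit, the summed fit, took LT15d, LT25d, and RT15d each as 1 summed library and assumed that these vary like the other groups. Its adjusted p is printed, as the summed-fit adjusted p, beside each DEG that it did not call.

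Of 29913 genes tested, 5029 were higher in LT25d than in LT15d (16.8%) and 4854 were lower (16.2%). Of these DEGs, 9748 of 9883 had 3 FPKM values in one group beyond all 3 of the other, but so had 78.7% of all genes tested, since the replicates are so close. At least 4-fold changes were found in 1754 higher and 1476 lower genes. The falls were more often in abundant genes, with 361 of the lower DEGs above a mean of 100 FPKM in LT15d and 110 of the higher DEGs above it in LT25d. With scaling to library size alone, 8255 genes were higher (27.6%) and 2700 lower (9.03%), in all 36.6% of the genes. The share of higher calls among all DEGs moved from 50.9% to 75.4%, and the median log2 fold change of all genes from -0.01 to 0.43. Of the 4854 lower DEGs, 2700 kept their call under that scaling. All kept a negative log2 fold change, but a shift of about 0.44 could hardly reverse genes that fell at least 2-fold. The summed fit called 1818 genes higher (6.08%) and 1665 lower (5.57%), and 1817 and 1629 of these were among the DEGs above.

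**Figure D1:**
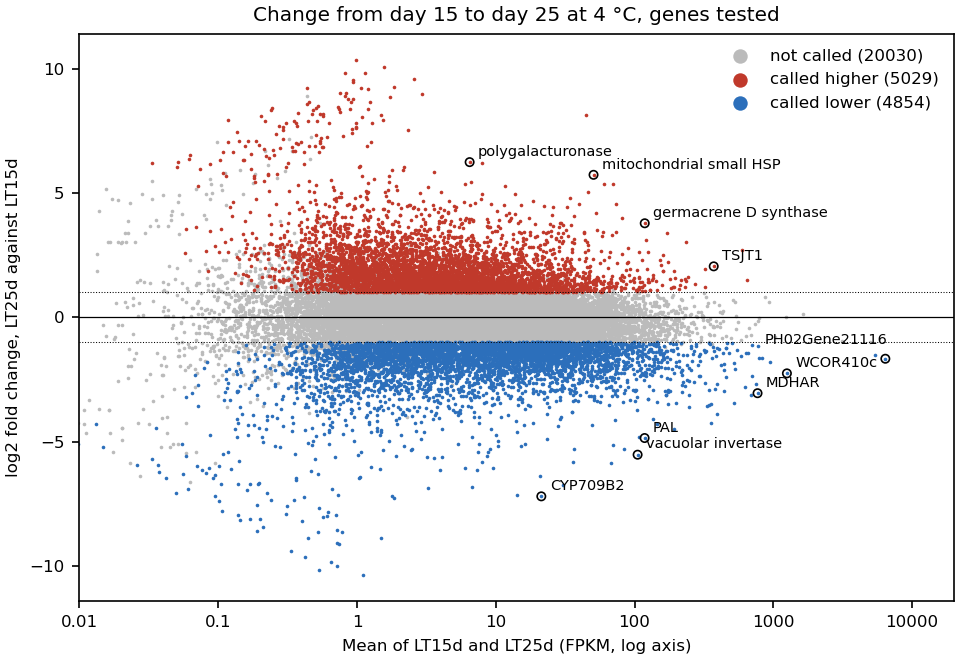
Each point is 1 of 29913 genes tested, with the mean of the LT15d and LT25d levels (FPKM, log axis) across and the log2 fold change of LT25d against LT15d (TMM scaling) upwards. The 5029 genes called higher are red and the 4854 called lower blue, dotted lines mark a fold change of 2, and circled genes are described in the text. The most abundant genes lie mainly below 0.

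The largest rise among abundant genes with a named protein was that of PH02Gene31815, described as a polygalacturonase, an enzyme that cuts pectin in the cell wall. It was at 0.121, 0.199, and 0.0489 FPKM in the 3 LT15d libraries and at 13.2, 12.6, and 12.7 FPKM in the LT25d libraries (log2 fold change 6.24 ± 0.35, adjusted p = 9.5e-10). CK stood at 8.13 FPKM and LT1d at 4.02 FPKM, so day 15 was the low point of the cold series. PH02Gene10746, a mitochondrial small heat shock protein of 24.1 kDa and a chaperone that binds unfolding proteins, rose from 1.45, 2.1005, and 0.671 to 95.1, 104, and 101 FPKM (log2 fold change 5.73 ± 0.45, adjusted p = 2.4e-08). At 25 °C it stood at 2.88 FPKM on day 15 and 0.246 FPKM on day 25. A pair of F-box/kelch-repeat genes, PH02Gene28645 and PH02Gene50901, rose alike, the former from 1.63, 3.06, and 2.84 to 136, 138, and 139.5 FPKM (log2 fold change 5.38 ± 0.50, adjusted p = 1.6e-07). The latter rose by a log2 fold change of 5.36. F-box proteins pick targets for degradation, and reads may be shared between these near-equal copies. PH02Gene33502, a pirin-like protein, rose from 2.11 to 90.5 FPKM (log2 fold change 5.03).

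Further large rises concerned a nodulin family protein (PH02Gene27342, log2 fold change 6.21), an asparagine synthetase, which stores nitrogen as asparagine (PH02Gene03391, 5.44, summed-fit adjusted p = 0.051), and a gene matched to rice ent-cassadiene C2-hydroxylase, a cytochrome P450 of diterpenoid defence compounds (PH02Gene20870, 5.38). A desiccation-related protein (PH02Gene47419) rose from 0.426 to 22.8 FPKM. 3-ketoacyl-CoA synthase 6 (PH02Gene05291), which lengthens fatty acids for wax, rose from 0.638 to 26.9 FPKM. The 10 largest rises had log2 fold changes of 4.98 to 6.24, and 9 of them were also called in the summed fit, the exception being PH02Gene03391. Chosen after its values were seen, PH02Gene48475, a hypothetical protein, rose more than any of these, from 0.102, 0.363, and 0.221 to 88.8, 90.5, and 88.7 FPKM (log2 fold change 8.13 ± 0.69, adjusted p = 5.0e-08). No role can be given for it.

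The largest falls were led by 3 genes of the cytochrome P450 subfamily 709B, PH02Gene24837 on scaffold 9 (56788178 to 56793187) and the neighbours PH02Gene39130 and PH02Gene39131 on scaffold 4 (6070608 to 6088566 in all), in the coordinates of the P. edulis assembly of the files. PH02Gene24837 was at 41.2, 42.5, and 42.9 FPKM in LT15d and at 0.533, 0.295, and 0.283 FPKM in LT25d (log2 fold change -7.20 ± 0.95, adjusted p = 6.9e-06). PH02Gene39130, the most abundant of them, went from 133, 134, and 128 to 2.69, 3.197, and 3.02 FPKM (log2 fold change -5.86 ± 0.90, adjusted p = 3.5e-05, summed-fit adjusted p = 0.07). PH02Gene39131 had a log2 fold change of -6.73, summed-fit adjusted p = 0.058. Genes of jasmonate and ethylene synthesis were among the largest falls as well. PH02Gene40007, a 12-oxophytodienoate reductase, fell from 13.3 to 0.151 FPKM (log2 fold change -6.82). Its neighbour PH02Gene40001 fell from 135, 135, and 134 to 5.38, 4.54, and 5.32 FPKM (log2 fold change -5.12 ± 0.42, adjusted p = 3.3e-08). PH02Gene02494, a 1-aminocyclopropane-1-carboxylate oxidase, which makes ethylene, fell from 72.1, 69.8, and 68.9 to 1.67, 1.3005, and 1.94 FPKM (log2 fold change -5.81 ± 0.48, adjusted p = 4.4e-08). It rose at 25 °C from 1.63 to 13.4 FPKM.

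Regulators among the 10 largest falls were a bHLH35-like factor (PH02Gene12146, log2 fold change -6.06), an AP2/EREBP factor (PH02Gene17723, -5.80, summed-fit adjusted p = 0.069), and a PBL28 kinase (PH02Gene28488, -6.07). The membrane protein DMP2 (PH02Gene18816, -6.13, summed-fit adjusted p = 0.054) and a vacuolar invertase described further on were also among them. None of these 20 genes lost its call when any single library was left out. They were picked for large changes and their replicates nearly coincide, so this could hardly have turned out otherwise.

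The 3 genes with the highest levels in LT15d lay side by side on scaffold 9 (58783410 to 58851692) and carry no informative description. PH02Gene21116 was at 8666, 9343, and 9194 FPKM in LT15d and at 3625, 3876, and 3775 FPKM in LT25d (log2 fold change -1.67 ± 0.42, adjusted p = 0.0029, summed-fit adjusted p = 0.28). It had been at 32.003 FPKM in LT1d and was at 92.9 FPKM in RT15d, so that both late cold groups stood far above the rest. PH02Gene21117 fell from a mean of 7376 to 3430.3 FPKM (summed-fit adjusted p = 0.39, not called with library size scaling, log2 fold change -1.50), whereas PH02Gene21115 (6008 and 3999.6 FPKM, log2 fold change -0.98) and PH02Gene35260 (-0.93) were not called. Chitinase 8 (PH02Gene03004), which breaks fungal walls, was among the 5 most abundant genes of LT25d at 1930.02, 1879, and 1960.1 FPKM against 1339.9, 1364, and 1345 FPKM in LT15d, a log2 fold change of 0.12 that did not pass the test.

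Among dehydrins, LEA, and cold-regulated proteins, 2 of 23 members tested were called higher and 10 lower (median log2 fold change -0.85, 1 higher and 1 lower in the summed fit). Cold acclimation protein WCOR410c (PH02Gene13412), a wheat-type acidic dehydrin and among the 5 most abundant genes of LT15d, was at 1973, 1952, and 1967 FPKM there and at 543, 536, and 545 FPKM in LT25d (log2 fold change -2.25 ± 0.36, adjusted p = 4.7e-05, summed-fit adjusted p = 0.08). Dehydrin COR410 (PH02Gene01531) fell from 397, 382, and 379.5 to 74.4, 71.7, and 76.4 FPKM (log2 fold change -2.78 ± 0.27, adjusted p = 2.5e-07) and kept its call in the summed fit, where it was the only member called lower. The LEA proteins PH02Gene40576 and PH02Gene40657 fell from means of 179 to 22.7 FPKM (summed-fit adjusted p = 0.16), and of 130.3 to 19.3 FPKM (summed-fit adjusted p = 0.13). On day 1 of cold these 2 genes had stood at only 0.518 and 3.17 FPKM. Copies of a dehydrin did not move alike: of 2 genes described as dehydrin DHN3, chosen after their values were seen, PH02Gene11487 fell from 1256 to 257 FPKM (summed-fit adjusted p = 0.17), while PH02Gene07646 was at 143, 149, and 142 FPKM and then at 227, 219, and 226 FPKM (log2 fold change 0.24 ± 0.40, adjusted p = 0.64). The few members that rose were kinases named cold-responsive protein kinase 1, such as PH02Gene46891 (12.98 to 39.4 FPKM, summed-fit adjusted p = 0.16), which are signalling and not protective proteins.

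**Figure D2:**
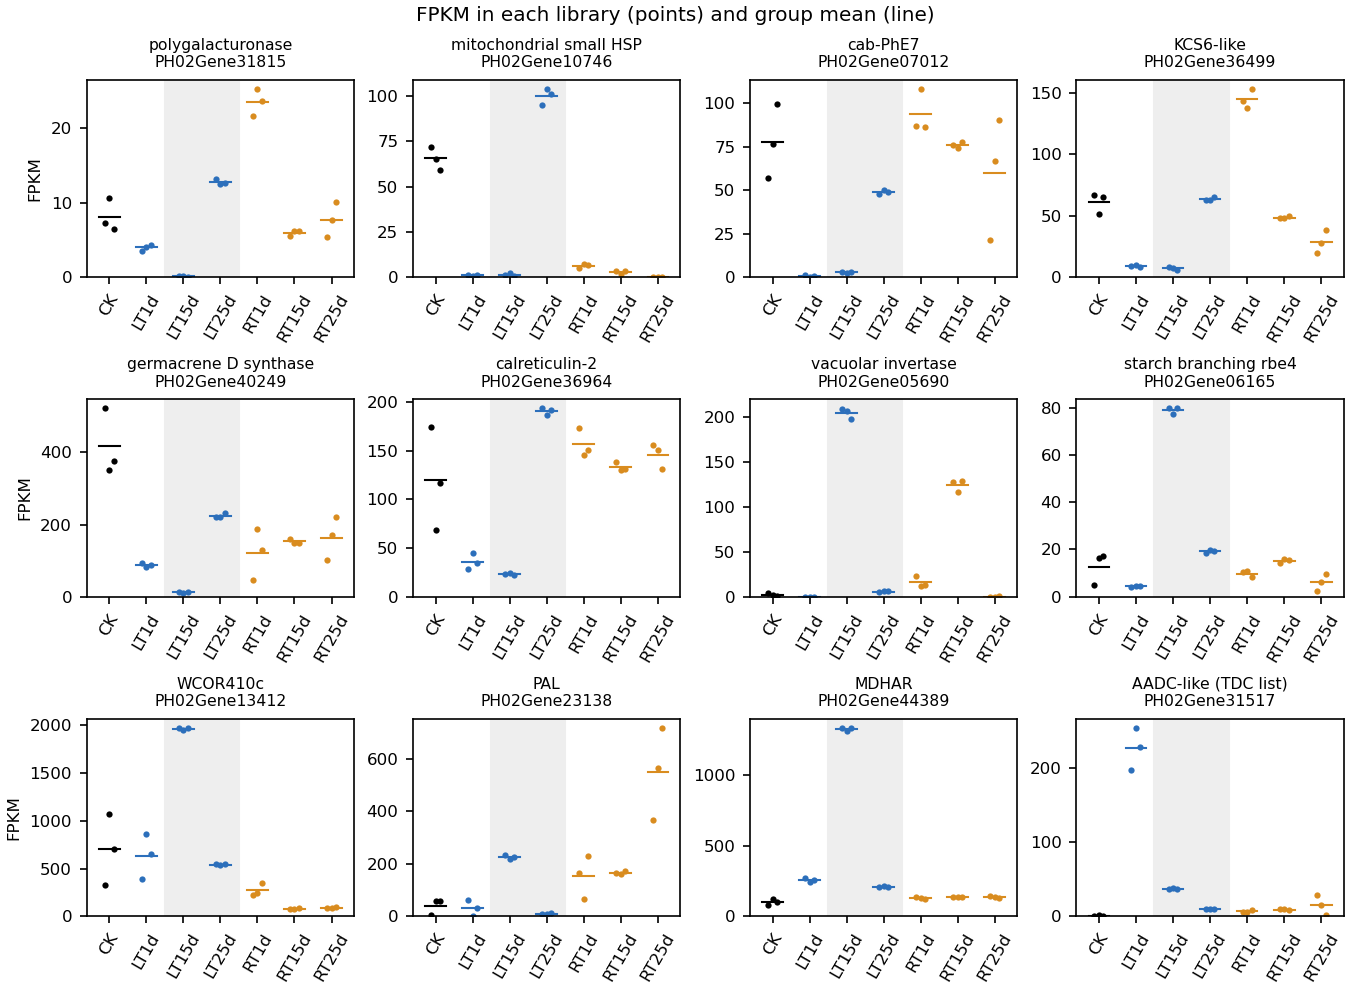
FPKM (linear axis from 0) of 12 genes in each of the 21 libraries, as points, with the group mean as a line, blue for 4 °C, orange for 25 °C, and black for CK, and LT15d and LT25d shaded. The 3 points of LT15d and of LT25d nearly coincide in every panel, while those of CK and RT25d often lie apart. Read row by row, the first 6 genes are higher and the last 6 lower in LT25d than in LT15d.

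Sugar and starch genes were more often lower than higher on day 25. In the list of sucrose, raffinose, and trehalose metabolism, 10 of 81 members tested were called higher and 31 lower (median log2 fold change -0.52, 3 higher and 14 lower in the summed fit). A pair of vacuolar invertases side by side on scaffold 20 (51950428 to 52000141), which split sucrose in the vacuole, fell most: PH02Gene05690 was at 209, 207, and 198 FPKM in LT15d and 5.399, 6.06, and 6.03 FPKM in LT25d (log2 fold change -5.53 ± 0.54, adjusted p = 2.5e-07). PH02Gene05689 was at 371, 361, and 354 and then at 21.98, 22.03, and 19.6 FPKM (log2 fold change -4.49 ± 0.48, adjusted p = 6.7e-07). Both also fell over the same days at 25 °C, from 124 to 0.216 and from 122 to 0.567 FPKM. Galactinol synthase 2 (PH02Gene28670), which supplies galactinol for raffinose, fell from 139, 133, and 133 to 9.56, 10.01, and 11.01 FPKM (log2 fold change -4.12 ± 0.30, adjusted p = 1.1e-08). It stood at 5.497 FPKM in RT15d, far below the 3 LT15d libraries. Sucrose synthase (PH02Gene04423) and 2 trehalose-phosphate synthases (PH02Gene22461 and PH02Gene13757) rose, the first from 55.2 to 170.5 FPKM (summed-fit adjusted p = 0.20).

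In the starch list, 10 of 67 members tested were called higher and 34 lower (median log2 fold change -1.16, 5 higher and 9 lower in the summed fit). The falls included successive steps of starch synthesis, the small subunit of glucose-1-phosphate adenylyltransferase (PH02Gene13620, log2 fold change -3.19), soluble starch synthase 2-2 (PH02Gene10028, -2.74), and a branching enzyme (PH02Gene29455, from 27.5, 27.2, and 27.6 to 3.49, 3.54, and 3.93 FPKM, log2 fold change -3.30 ± 0.43, adjusted p = 6.1e-06). Among genes chosen after their values were seen, the branching enzyme rbe4 (PH02Gene06165) fell from 79.6, 77.4, and 79.7 to 18.7, 19.8, and 19.3 FPKM (log2 fold change -2.43 ± 0.41, adjusted p = 9.2e-05, summed-fit adjusted p = 0.095). Granule-bound starch synthase 1b (PH02Gene37359) fell from 46.6 to 16.6 FPKM (summed-fit adjusted p = 0.23). All 5 genes had been low on day 1 of cold, at means of 1.05 to 4.51 FPKM. Beta-amylases, which release maltose from starch, were among the rises: beta-amylase 3 (PH02Gene32320, chosen after its values were seen) rose from 18.9 to 52.8 FPKM (summed-fit adjusted p = 0.17). PH02Gene44774 rose from 17.01 to 48.1 FPKM (summed-fit adjusted p = 0.30). An inactive beta-amylase 9 (PH02Gene10442) rose from 54.98 to 179 FPKM.

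Phenylpropanoid genes were more often lower than higher on day 25. In the list of lignin monomer enzymes, 16 of 105 members tested were called higher and 47 lower (median log2 fold change -0.80, 4 higher and 14 lower in the summed fit). Among members with at least 10 FPKM in LT15d, 2 PAL genes had the largest falls. PH02Gene08453 fell from 168, 159, and 157 to 4.98, 5.29, and 5.77 FPKM (log2 fold change -5.31 ± 0.92, adjusted p = 1.1e-04, summed-fit adjusted p = 0.10). PH02Gene23138 fell from 233, 217, and 228 to 10.5, 9.49, and 10.8 FPKM (log2 fold change -4.86 ± 0.91, adjusted p = 2.3e-04, summed-fit adjusted p = 0.12). All 3 values of LT25d lay below those of LT15d for both, but naming required this, and it held for 26.3% of all genes tested. PH02Gene30508, another PAL gene, fell from 219 to 29.5 FPKM. PH02Gene27016 fell from 192 to 79.9 FPKM (summed-fit adjusted p = 0.18). At 25 °C these 4 PAL genes were at 128 to 472 FPKM on day 15 and at 334 to 1274 FPKM on day 25. Cinnamate 4-hydroxylase (PH02Gene03697), the enzyme after PAL, fell from 189, 184, and 184 to 54.8, 48.6, and 55.3 FPKM (log2 fold change -2.21 ± 0.41, adjusted p = 2.2e-04, summed-fit adjusted p = 0.12). Caffeoyl-CoA O-methyltransferases PH02Gene17241 (299 to 52.4 FPKM) and PH02Gene12695 (291 to 67.7 FPKM) fell too, and both calls held in the summed fit. Cinnamoyl-CoA reductase 1 (PH02Gene02696) fell from 27.1 to 1.45 FPKM (summed-fit adjusted p = 0.10) while it rose at 25 °C from 4.501 to 222 FPKM. The most abundant genes of the list in LT15d, chosen after their values were seen, were cinnamyl alcohol dehydrogenases, which make the monolignols. PH02Gene38470 fell from 668, 657, and 662 to 47.9, 44.4, and 45.8 FPKM (log2 fold change -4.24 ± 0.61, adjusted p = 1.7e-05, summed-fit adjusted p = 0.057). PH02Gene39617 fell from 371, 368, and 367 to 72.9, 71.99, and 75.7 FPKM (log2 fold change -2.72 ± 0.15, adjusted p = 9.4e-10), and both also fell at 25 °C (log2 fold changes -3.71 and -1.48). Against the trend, caffeoylshikimate esterases PH02Gene34401 and PH02Gene11717 rose (log2 fold changes 1.73 and 1.23).

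Among laccases, copper oxidases that couple phenolics into polymers, 2 of 23 members tested were called higher and 11 lower (median log2 fold change -1.79, 0 higher and 0 lower in the summed fit). Laccase-20 (PH02Gene45391) fell from 11.3, 10.3, and 11.8 to 2.38, 3.01, and 2.74 FPKM (log2 fold change -2.43 ± 0.58, adjusted p = 0.0018, summed-fit adjusted p = 0.22). A laccase-25-like gene (PH02Gene40848) fell from 47.3, 48.9, and 47.4 to 17.6, 16.1, and 15.4 FPKM (log2 fold change -1.94 ± 0.69, adjusted p = 0.023, summed-fit adjusted p = 0.42, not called with library size scaling), a call lost without any 1 of the LT25d libraries (log2 fold change -2.003 to -1.90). Chosen after its values were seen, putative laccase-19 (PH02Gene43659) was called higher, at 0, 0, and 0.0373 FPKM in LT15d and 2.86, 2.33, and 1.83 FPKM in LT25d (adjusted p = 7.4e-04, summed-fit adjusted p = 0.12), with no fold given because LT15d was at or near 0. Of the 2 polyphenol oxidases tested, also named after their values were seen, PH02Gene01841 was at 0.194, 0.313, and 0.303 FPKM in LT15d and at 7.63, 7.18, and 8.005 FPKM in LT25d (log2 fold change 4.39 ± 1.27, adjusted p = 0.0068, summed-fit adjusted p = 0.30). PH02Gene03906 stayed below 1 FPKM in both groups and was not called. Class III peroxidases, which oxidize phenolics in the wall, leaned the other way: 13 of 59 members tested were called higher and 7 lower (median log2 fold change 0.51, 1 higher and 1 lower in the summed fit). Peroxidase 8 (PH02Gene08066), an abundant member, rose from 105, 105, and 106 to 545, 529, and 544 FPKM (log2 fold change 1.96 ± 0.33, adjusted p = 8.7e-05, summed-fit adjusted p = 0.10).

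Of the shikimate pathway and tryptophan synthesis, 4 of 57 members tested were called higher and 15 lower (median log2 fold change -0.06, 0 higher and 2 lower in the summed fit, 10 higher and 9 lower with library size scaling). Entry enzymes of the shikimate pathway, 2 genes of 3-deoxy-7-phosphoheptulonate synthase (phospho-2-dehydro-3-deoxyheptonate aldolase 1), fell: PH02Gene27922 from 157, 143, and 149.8 to 29.7, 27.5, and 28.3 FPKM (log2 fold change -2.78 ± 0.37, adjusted p = 8.3e-06). PH02Gene26173 fell from 202, 186, and 189 to 45.5, 52.02, and 50.9 FPKM (log2 fold change -2.35 ± 0.12, adjusted p = 2.5e-10). Tryptophan synthase beta chain 2 (PH02Gene10139) fell from 465 to 119 FPKM (summed-fit adjusted p = 0.11) after 929.7 FPKM on day 1 of cold. In the serotonin and melatonin list, 2 of 10 members tested were called higher and 1 lower (median log2 fold change 0.49, 0 higher and 0 lower in the summed fit). The decarboxylase gene PH02Gene31517, which is described as aromatic-L-amino-acid decarboxylase and counts as a tryptophan decarboxylase candidate, fell from 36.9, 37.8, and 36.2 to 10.1, 10.4, and 9.97 FPKM (log2 fold change -2.26 ± 0.58, adjusted p = 0.0032, summed-fit adjusted p = 0.25). PH02Gene42909, its most abundant relative, was at 53.8, 54.1, and 51.8 and 29.1, 27.4, and 27.2 FPKM, a difference that was not called (log2 fold change -1.33 ± 0.58, adjusted p = 0.059). The other decarboxylase genes, PH02Gene26873, PH02Gene26874, and PH02Gene42906, had log2 fold changes of -0.70, -0.98, and 2.02, and the tyrosine decarboxylase PH02Gene11512 of 0.79, none of them called.

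None of the 10 tested members of that list is described as tryptamine 5-hydroxylase, the next enzyme to serotonin, so that step is not covered here. Further down that route, the serotonin N-acetyltransferases PH02Gene02432 and PH02Gene05544 had log2 fold changes of 0.30 and 0.68, under the 2-fold threshold, and were not called. Acetylserotonin O-methyltransferase, which finishes melatonin, was called higher in both tested genes. PH02Gene42942 was at 0.314, 0.236, and 0.8503 FPKM in LT15d and at 8.86, 8.26, and 10.03 FPKM in LT25d (log2 fold change 3.86 ± 0.91, adjusted p = 0.0016, summed-fit adjusted p = 0.20). PH02Gene07987 stayed low, at means of 0.1502 and 0.874 FPKM (log2 fold change 2.12, summed-fit adjusted p = 0.35, a call lost without LT15d replicate 1 or 2 or LT25d replicate 1 or 3, at 1.77 to 1.94). The 3 LT25d values lay above the 3 LT15d values for both genes, but so they did for 52.4% of all genes tested.

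Flavonoid genes were more often called lower than higher. The summed level of their list, in FPKM without TMM scaling, was 1830 to 1864 in LT15d and 2553 to 2570 in LT25d. In that list, 13 of 86 members tested were called higher and 26 lower (median log2 fold change -0.42, 1 higher and 3 lower in the summed fit, 19 higher and 20 lower with library size scaling). A chalcone synthase (PH02Gene44458), the entry enzyme, fell from 12.1 to 1.296 FPKM (summed-fit adjusted p = 0.099). A flavonoid O-methyltransferase (PH02Gene38631) fell from 90.3 to 12.5 FPKM (summed-fit adjusted p = 0.077), while flavanone 3-dioxygenase 2 (PH02Gene00897) rose from 158 to 488 FPKM (summed-fit adjusted p = 0.34). Among UDP-glycosyltransferases, which attach sugars to such compounds, 5 of 73 members tested were called higher and 28 lower (median log2 fold change -0.59, 0 higher and 7 lower in the summed fit). UGT13248 (PH02Gene36818) went from 32.5, 33.8, and 28.1 to 1.15, 1.12, and 1.37 FPKM (log2 fold change -5.09 ± 1.01, adjusted p = 3.8e-04, summed-fit adjusted p = 0.15). UDP-glycosyltransferase 13 (PH02Gene45455) fell from 163, 162, and 162 to 21.2, 22.6, and 20.3 FPKM (log2 fold change -3.32 ± 0.30, adjusted p = 1.1e-07). For glutathione S-transferases, which attach glutathione to reactive compounds, 11 of 77 members tested were called higher and 26 lower (median log2 fold change -0.50, 2 higher and 6 lower in the summed fit, 13 higher and 13 lower with library size scaling). GSTU6 (PH02Gene46293), the most abundant that fell, went from 726, 718, and 720.2 to 59.7, 61.9, and 68.1 FPKM (log2 fold change -3.91 ± 0.43, adjusted p = 9.9e-07).

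**Figure D3:**
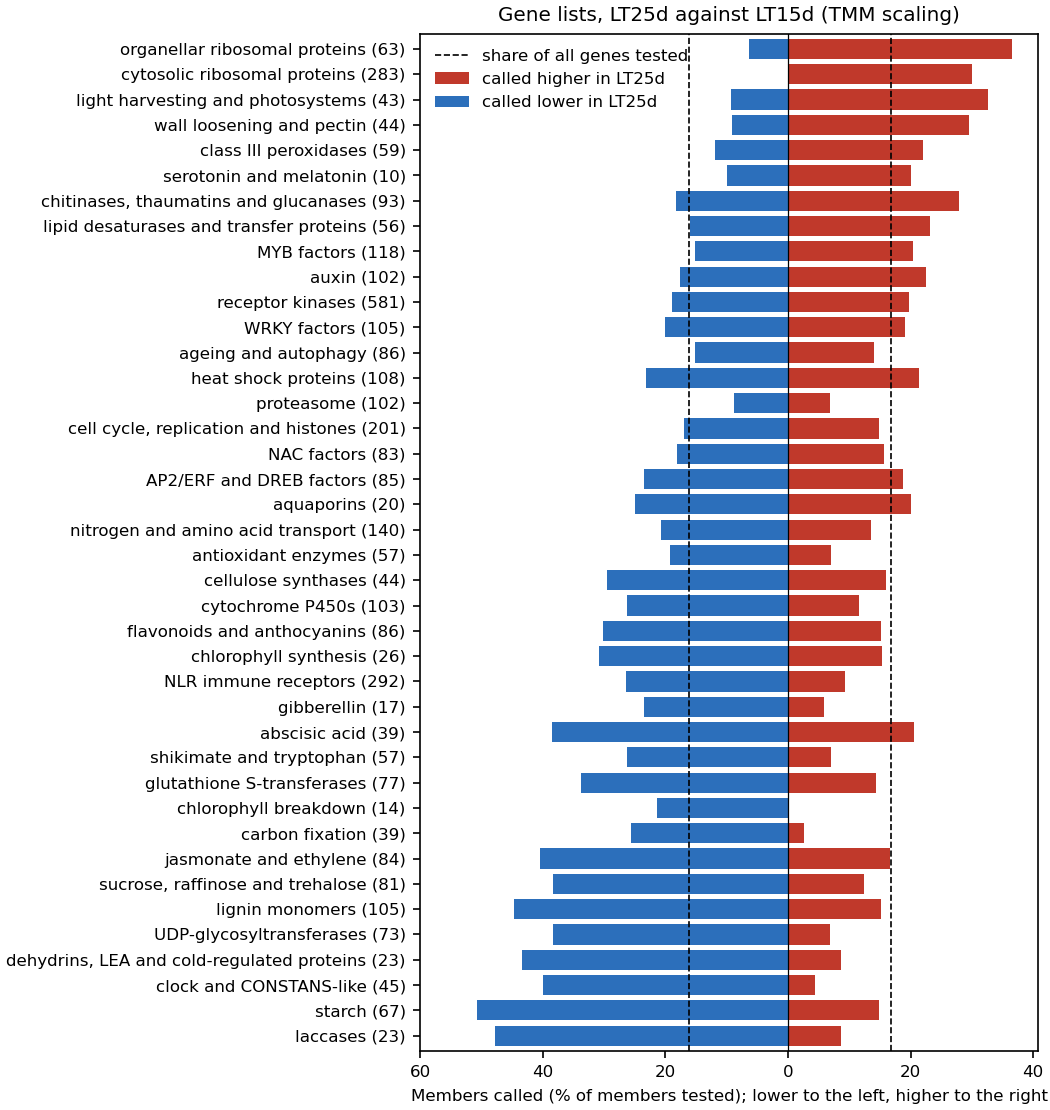
Shares of the tested members of each list with at least 10 tested genes that were called higher (red, to the right) or lower (blue, to the left) in LT25d, in percent, with the number tested in brackets and the shares of all 29913 genes, 16.8% and 16.2%, as dashed lines. Starch, laccases, lignin monomers, LEA proteins, jasmonate and ethylene, and the clock reach farthest to the left and ribosomal and photosystem proteins to the right. With library size scaling the longer side changes for heat shock proteins, AP2/ERF and DREB factors, WRKY factors, NAC factors, shikimate and tryptophan, antioxidant enzymes, cytochrome P450s, aquaporins, cell cycle, replication and histones, ageing and autophagy, proteasome, and nitrogen and amino acid transport, and neither side is longer for chlorophyll synthesis, abscisic acid, and glutathione S-transferases.

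Photosynthesis genes were called in both directions. In the list of light harvesting and photosystem proteins, 14 of 43 members tested were called higher and 4 lower (median log2 fold change 0.45, 1 higher and 1 lower in the summed fit). In the KEGG pathway of antenna proteins, which holds further genes described as chlorophyll a/b binding, 12 of 29 genes tested were called higher and 5 lower (median log2 fold change 0.84, 3 higher and 2 lower in the summed fit), while the summed level of its genes was 1182 to 1209.7 FPKM in LT15d and 434 to 438 FPKM in LT25d. Those called higher were low in LT15d, none above the 3.37 FPKM of PH02Gene42040. The chlorophyll a/b binding protein cab-PhE7 (PH02Gene07012), which holds antenna pigments, rose from 2.87, 2.69, and 3.09 to 47.8, 49.9, and 48.96 FPKM (log2 fold change 3.69 ± 0.53, adjusted p = 1.5e-05, summed-fit adjusted p = 0.069). PH02Gene27073, also described as cab-PhE7, rose from 2.72 to 19.4 FPKM (summed-fit adjusted p = 0.15). PH02Gene42040, cab-PhE9, rose from 3.37 to 18.5 FPKM (summed-fit adjusted p = 0.14). CK had held PH02Gene07012 at 77.6 FPKM and RT15d at 75.9 FPKM, above LT15d and LT25d. The lower calls included the most abundant antenna gene of LT15d, PH02Gene04237, chosen after its values were seen. It was at 941, 949, and 921 FPKM in LT15d and at 113, 110.2, and 113 FPKM in LT25d (log2 fold change -3.46 ± 0.33, adjusted p = 2.2e-07), after 239 FPKM in CK and 2.24 FPKM in LT1d. LHCII type 1 (PH02Gene45538) fell from 87.5, 87.9, and 90.6 to 12.6, 12.2, and 14.6 FPKM (log2 fold change -3.15 ± 0.25, adjusted p = 3.0e-08). In the carbon fixation list, 1 of 39 members tested was called higher and 10 lower (median log2 fold change -0.73, 0 higher and 4 lower in the summed fit). A small subunit of Rubisco (PH02Gene30282) fell from 264, 260.4, and 259 to 83.8, 85.7, and 84.8 FPKM (log2 fold change -2.02 ± 0.50, adjusted p = 0.0023, summed-fit adjusted p = 0.23). The chaperonin that assembles Rubisco (PH02Gene30595) fell from 113 to 35.999 FPKM (summed-fit adjusted p = 0.14). Chlorophyllide a oxygenase (PH02Gene06841), which makes chlorophyll b, fell from 79.4 to 18.4 FPKM (summed-fit adjusted p = 0.083). Protochlorophyllide reductase B (PH02Gene14847) rose from 6.79 to 22.9 FPKM (summed-fit adjusted p = 0.22). Among chlorophyll synthesis genes 4 of 26 members tested were called higher and 8 lower (median log2 fold change -0.32, 2 higher and 2 lower in the summed fit, 5 higher and 5 lower with library size scaling), and among chlorophyll breakdown genes 0 of 14 members tested were called higher and 3 lower (median log2 fold change -0.21, 0 higher and 0 lower in the summed fit, 1 higher and 2 lower with library size scaling).

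Ribosomal proteins gave the most one-sided counts of all lists. Among cytosolic ribosomal proteins, 85 of 283 members tested were called higher and 0 lower (median log2 fold change 0.68, 62 higher and 0 lower in the summed fit). The abundant members moved by modest amounts, such as 40S S20-1 (PH02Gene40308), which rose from 31.2, 32.4, and 37.2 to 131, 122, and 125 FPKM (log2 fold change 1.51 ± 0.12, adjusted p = 2.3e-08). A low member, 40S S15 (PH02Gene08474), rose from 2.47 to 17.02 FPKM. At 25 °C the same list had a median log2 fold change of 0.04. Ribosomal proteins of chloroplasts and mitochondria had 23 of 63 members tested called higher and 4 lower (median log2 fold change 0.43, 4 higher and 0 lower in the summed fit), with 30S S16-2 (PH02Gene12647) rising from 3.51 to 17.1 FPKM (summed-fit adjusted p = 0.11). Chaperones of the endoplasmic reticulum were also among the rises. Calreticulin-2 (PH02Gene36964), which folds glycoproteins, was at 23.5, 24.1, and 22.4 FPKM in LT15d and at 194, 186, and 192 FPKM in LT25d (log2 fold change 2.64 ± 0.21, adjusted p = 2.7e-08). Further calreticulin genes rose too, PH02Gene17175 from 73.6 to 239 FPKM. PH02Gene27115 rose from 49.8 to 175 FPKM. Proteasome subunits, in contrast, stayed mostly below the threshold: 7 of 102 members tested were called higher and 9 lower (median log2 fold change -0.12, 1 higher and 4 lower in the summed fit, 17 higher and 2 lower with library size scaling).

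**Figure D4:**
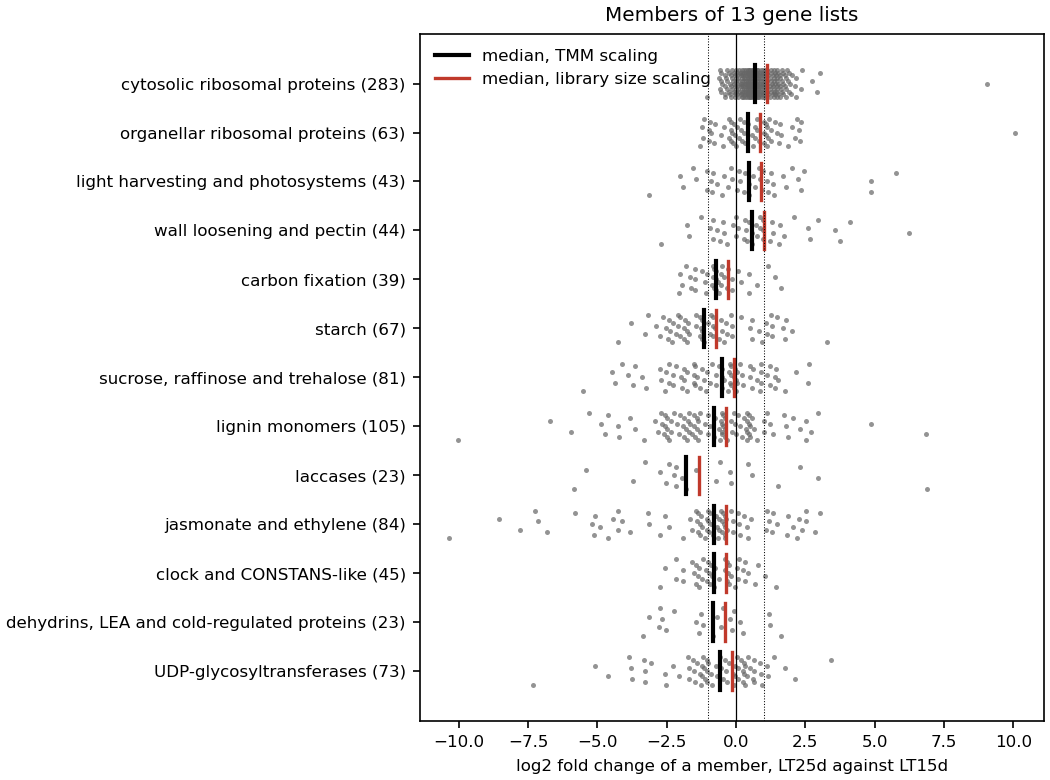
Log2 fold change (LT25d against LT15d, TMM scaling) of each tested member of 13 gene lists, as points, with the list's median as a black bar and its median with library size scaling as a red bar. Cytosolic ribosomal proteins gather around a median of 0.68, whereas jasmonate and ethylene, lignin, and starch genes are spread from large falls to rises. No median of these lists crosses 0 under library size scaling.

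Genes of fatty acid elongation and of terpenoid synthesis were among the rises. In the KEGG pathway of fatty acid elongation, 19 of 58 genes tested were called higher and 8 lower (median log2 fold change 0.54, 10 higher and 3 lower in the summed fit). The KEGG pathway of cutin, suberine, and wax was even, as 12 of 55 genes tested were called higher and 11 lower (median log2 fold change -0.10, 3 higher and 2 lower in the summed fit), with summed levels of 518 to 535 FPKM in LT15d and 403 to 407 FPKM in LT25d. KCS6-like PH02Gene36499 was at 8.01, 7.37, and 6.33 FPKM in LT15d and at 63.1, 63.1, and 65.4 FPKM in LT25d (log2 fold change 2.75 ± 0.17, adjusted p = 2.0e-09). Later enzymes of the cycle rose with it. Very-long-chain 3-hydroxyacyl-CoA dehydratase (PH02Gene47315) rose from 15.98 to 96.3 FPKM and enoyl-CoA reductase (PH02Gene04067) from 42.3 to 127 FPKM. All 3 calls held in the summed fit. PH02Gene50954 and PH02Gene11749, near-identical KCS6 copies that may share reads, rose by log2 fold changes of 3.11 and 3.07 and fell at 25 °C by 1.38 and 1.36. In sesquiterpenoid and triterpenoid biosynthesis, 27 of 63 genes tested were called higher and 6 lower (median log2 fold change 0.88, 7 higher and 2 lower in the summed fit). Germacrene D synthase (PH02Gene40249), which makes a volatile sesquiterpene, rose from 13.2, 11.4, and 12.5 to 221, 221, and 232 FPKM (log2 fold change 3.78 ± 0.36, adjusted p = 1.8e-07). The farnesol/nerolidol synthases PH02Gene28702 and PH02Gene28704 rose from 18.7 to 144 FPKM (summed-fit adjusted p = 0.091) and from 14.7 to 119 FPKM (summed-fit adjusted p = 0.075). In monoterpenoid biosynthesis, 8 of 21 genes tested were called higher and 4 lower (median log2 fold change 0.43, 3 higher and 3 lower in the summed fit), led in level by an unnamed gene (PH02Gene02076) and an alpha-terpineol synthase (PH02Gene45068).

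Heat shock proteins and their regulators were called in both directions, as were all genes tested (16.8% higher and 16.2% lower). The list had 23 of 108 members tested called higher and 25 lower (median log2 fold change -0.27, 9 higher and 8 lower in the summed fit, 33 higher and 16 lower with library size scaling). Small class I proteins of 17.9 and 16.9 kDa (PH02Gene03497 and PH02Gene22220) rose from 3.89 to 26.9 FPKM (summed-fit adjusted p = 0.22) and from 2.5000 to 16.8 FPKM (summed-fit adjusted p = 0.35), next to the mitochondrial protein described first. A 16.6 kDa relative (PH02Gene22223) fell from 80.4 to 16.2 FPKM (summed-fit adjusted p = 0.097). Heat stress transcription factor C-2a (PH02Gene40145) fell from 105, 104, and 104 to 21.4, 23.8, and 23.5 FPKM (log2 fold change -2.58 ± 0.30, adjusted p = 1.6e-06). C-1a (PH02Gene40343) fell from 32.2 to 7.59 FPKM (summed-fit adjusted p = 0.11). At 25 °C all 5 of these genes were called lower on day 25 than on day 15.

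Lipid desaturases, by contrast, fell in their most abundant members. The delta-8 sphingolipid desaturase PH02Gene30788 went from 658, 624, and 636 to 74.99, 72.2, and 76.8 FPKM (log2 fold change -3.49 ± 0.27, adjusted p = 2.1e-08). The endoplasmic reticulum omega-3 desaturase PH02Gene23551, which makes linolenic acid, fell from 126 to 42.1 FPKM (summed-fit adjusted p = 0.12, log2 fold change -1.98). A lipid transfer protein (PH02Gene08747) fell from 536 to 113 FPKM (summed-fit adjusted p = 0.20). Each lay lower in all LT25d libraries, but so did 26.3% of all genes tested. Over the whole list, 13 of 56 members tested were called higher and 9 lower (median log2 fold change 0.15, 4 higher and 2 lower in the summed fit). Antioxidant enzymes fell in single abundant genes: 4 of 57 members tested were called higher and 11 lower (median log2 fold change -0.50, 2 higher and 7 lower in the summed fit, 10 higher and 5 lower with library size scaling). Monodehydroascorbate reductase (PH02Gene44389), which restores ascorbate, was at 1335, 1312, and 1338 FPKM in LT15d and at 209, 212, and 211 FPKM in LT25d (log2 fold change -3.05 ± 0.17, adjusted p = 9.1e-10). It was at 135 and 136 FPKM at 25 °C. Chloroplast 2-Cys peroxiredoxin (PH02Gene41930), which removes peroxide, fell from 77.9, 73.6, and 77.4 to 12.8, 11.9, and 13.2 FPKM (log2 fold change -2.99 ± 0.29, adjusted p = 2.7e-07).

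Hormone genes were called in both directions, as were all genes tested (16.8% higher and 16.2% lower). In the jasmonate and ethylene list, 14 of 84 members tested were called higher and 34 lower (median log2 fold change -0.79, 6 higher and 16 lower in the summed fit). The jasmonate repressors TIFY 11c (PH02Gene40897, 131 to 25.6 FPKM, summed-fit adjusted p = 0.13), TIFY 10c (PH02Gene03055, 85.5 to 46.003 FPKM, summed-fit adjusted p = 0.34, not called with library size scaling), and TIFY 6A (PH02Gene34246, 176 to 111 FPKM, not called with library size scaling) fell. Ethylene receptors rose, receptor 2 (PH02Gene36404) from 2.42, 2.11, and 2.08 to 15.5, 14.5, and 14.7 FPKM (log2 fold change 2.36 ± 0.16, adjusted p = 4.0e-09). Receptor 3 (PH02Gene16274) rose from 2.82 to 21.2 FPKM (summed-fit adjusted p = 0.058). Both also rose at 25 °C. For abscisic acid, 8 of 39 members tested were called higher and 15 lower (median log2 fold change -0.55, 4 higher and 3 lower in the summed fit, 8 higher and 8 lower with library size scaling). Abscisic acid 8'-hydroxylase 3 (PH02Gene27952), which breaks the hormone down, fell from 379.6, 369, and 374 to 59.7, 62.5, and 62.6 FPKM (log2 fold change -2.998 ± 0.65, adjusted p = 7.9e-04, summed-fit adjusted p = 0.18), and the phosphatases PP2C 50 (PH02Gene21470) and PH02Gene44561 from 224 to 70.8 and from 309 to 51.4 FPKM. A SAPK kinase (PH02Gene40734), an activator of the same signal, rose from 35.96 to 130.1 FPKM. In the auxin list, 23 of 102 members tested were called higher and 18 lower (median log2 fold change 0.22, 5 higher and 3 lower in the summed fit). Auxin response factor 23 (PH02Gene46465) fell from 114 to 30.5 FPKM. The small auxin-induced SAUR36 (PH02Gene43999) rose from 3.33 to 26.95 FPKM (summed-fit adjusted p = 0.17). Gibberellin genes had 1 of 17 members tested called higher and 4 lower (median log2 fold change -0.19, 1 higher and 1 lower in the summed fit, 2 higher and 3 lower with library size scaling), among them 2 genes of chitin-inducible gibberellin-responsive protein 1. PH02Gene08687 fell from 63.2 to 10.6 FPKM and PH02Gene44779 from 91.7 to 21.9 FPKM (summed-fit adjusted p = 0.11).

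Transcription factor families had members called on both sides, in shares not far from those of all genes tested (16.8% higher and 16.2% lower). The shares of the families below ran from 15.7% to 20.3% higher and from 15.3% to 23.5% lower. AP2/ERF and DREB factors had 16 of 85 members tested called higher and 20 lower (median log2 fold change -0.29, 4 higher and 3 lower in the summed fit, 24 higher and 12 lower with library size scaling). Cytokinin response factor 5 (PH02Gene25072) was the most abundant of those that fell, from 743, 769, and 742 to 129, 121, and 135 FPKM (log2 fold change -2.95 ± 0.18, adjusted p = 1.5e-09). ERF073 (PH02Gene40881) rose from 1.22 to 23.6 FPKM. WRKY factors had 20 of 105 members tested called higher and 21 lower (median log2 fold change -0.09, 8 higher and 7 lower in the summed fit, 27 higher and 16 lower with library size scaling). WRKY76 (PH02Gene06791), a repressor of defence in rice, was at 20.2, 20.2, and 19.4 FPKM in LT15d and 0.861, 0.683, and 0.599 FPKM in LT25d (log2 fold change -5.18 ± 0.55, adjusted p = 6.0e-07). WRKY74-1 (PH02Gene30780) was at 3.199, 3.03, and 3.02 and then at 44.8, 40.8, and 43.3 FPKM (log2 fold change 3.40 ± 0.35, adjusted p = 3.9e-07). NAC factors had 13 of 83 members tested called higher and 15 lower (median log2 fold change -0.20, 4 higher and 4 lower in the summed fit, 20 higher and 8 lower with library size scaling). NAC35 (PH02Gene31596) rose from 1.86 to 24.8 FPKM. The abundant PH02Gene10707, a NAC protein, fell from 681 to 204 FPKM. MYB factors had 24 of 118 members tested called higher and 18 lower (median log2 fold change -0.01, 6 higher and 2 lower in the summed fit, median 0.40 with library size scaling), among them PHL11 (PH02Gene10199), which fell from 26.4 to 3.58 FPKM. The myb-related protein Hv1 (PH02Gene14655) rose from 5.61 to 37.3 FPKM.

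Clock genes were more often lower than higher on day 25. In the list of clock and CONSTANS-like genes, 2 of 45 members tested were called higher and 18 lower (median log2 fold change -0.80, 0 higher and 7 lower in the summed fit). LNK1 (PH02Gene08538), a coactivator of evening genes in Arabidopsis, fell from 96.1, 97.4, and 96.4 to 27.7, 27.8, and 28.8 FPKM (log2 fold change -2.18 ± 0.11, adjusted p = 4.8e-10), and at 25 °C from a mean of 127 to 1.19 FPKM. Chosen after their values were seen, REVEILLE 1 (PH02Gene29434) and GIGANTEA (PH02Gene42221) moved as well. REVEILLE 1 fell from 29.3 to 15.2 FPKM (summed-fit adjusted p = 0.14, not called with library size scaling) in cold and from 85.4 to 0.782 FPKM at 25 °C. GIGANTEA fell from 189.5 to 109 FPKM (summed-fit adjusted p = 0.063, not called with library size scaling) in cold and rose from 60.3 to 146 FPKM at 25 °C. TOC1-like PH02Gene18684 had log2 fold changes of -0.97 in cold (not called) and 2.41 at 25 °C. Since clock genes change through the day and neither labels nor methods give the hour of sampling, the part of the hour in these results was not tested.

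Genes of defence differed by class, beside shares over all genes tested of 16.8% higher and 16.2% lower. NLR immune receptors had 27 of 292 members tested called higher and 77 lower (median log2 fold change -0.45, 11 higher and 31 lower in the summed fit, 45 higher and 46 lower with library size scaling), while receptor kinases had 115 of 581 members tested called higher and 110 lower (median log2 fold change 0.03, 49 higher and 26 lower in the summed fit). Chitinases, thaumatins, and glucanases had 26 of 93 members tested called higher and 17 lower (median log2 fold change 0.07, 6 higher and 3 lower in the summed fit). Of the NLR genes, RPS2-like PH02Gene03909 fell from 10.6 to 2.28 FPKM. A disease resistance gene (PH02Gene02737) rose from 6.796 to 33.1 FPKM. The G-type lectin receptor kinase PH02Gene48279 rose from 8.25, 7.296, and 6.77 to 156, 154, and 154 FPKM (log2 fold change 3.98 ± 0.29, adjusted p = 1.2e-08). Glucan endo-1,3-beta-glucosidase 14 (PH02Gene44825), which cuts callose and fungal glucan, rose from 5.77 to 44.9 FPKM. Chitinase 5 (PH02Gene03197) rose from 2.65 to 21.3 FPKM (summed-fit adjusted p = 0.25), while thaumatin-like protein 1b (PH02Gene43141) fell from 21.8 to 6.84 FPKM (summed-fit adjusted p = 0.33). Among genes of wall loosening and pectin, 13 of 44 members tested were called higher and 4 lower (median log2 fold change 0.57, 5 higher and 0 lower in the summed fit). Among cellulose synthases and COBRA-like proteins, 7 of 44 members tested were called higher and 13 lower (median log2 fold change -0.21, 2 higher and 6 lower in the summed fit, 8 higher and 10 lower with library size scaling). Further lists were cytochrome P450s (12 of 103 higher and 27 lower, 22 higher and 21 lower with library size scaling), nitrogen and amino acid transport (19 of 140 higher and 29 lower, 34 higher and 19 lower with library size scaling), cell cycle and histones (30 of 201 higher and 34 lower, 55 higher and 17 lower with library size scaling), ageing and autophagy (12 of 86 higher and 13 lower, 17 higher and 8 lower with library size scaling), and aquaporins (4 of 20 higher and 5 lower, 6 higher and 3 lower with library size scaling). None of the 3 alternative oxidases was called.

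KEGG pathways and GO terms, as listed for each gene in the files, were counted in the same way and share genes with the lists above. Of 116 pathways with 20 to 3000 tested genes, 66 had more members lower than higher and 47 more higher. The largest shares higher were in sesquiterpenoid and triterpenoid biosynthesis, antenna proteins, monoterpenoid biosynthesis, and fatty acid elongation, followed by monobactam biosynthesis (8 of 25 higher and 1 lower, 4 and 0 in the summed fit, among them the lysine enzyme 4-hydroxy-tetrahydrodipicolinate synthase 2, PH02Gene21784, from 5.72 to 19.1 FPKM), taurine metabolism (7 of 23 higher and 6 lower, 1 and 3 in the summed fit), the folate pool (12 of 40 higher and 7 lower, 4 and 4 in the summed fit), and the ribosome (167 of 572 higher and 15 lower, 96 and 4 in the summed fit). In the antenna, taurine, and folate pathways more genes were called higher than lower, but the summed level was lower in LT25d. It was 391 to 404 FPKM in LT15d and 301 to 305 FPKM in LT25d for taurine metabolism and 1426 to 1472 FPKM in LT15d and 585 to 602 FPKM in LT25d for the folate pool. The most abundant gene of the folate pool, methylenetetrahydrofolate reductase (PH02Gene29163, chosen after its values were seen), fell from 651, 644, and 649.6 to 132, 134, and 128 FPKM (log2 fold change -2.70 ± 0.27, adjusted p = 3.9e-07). FolD 2 (PH02Gene45384), which interconverts one-carbon forms, rose from 0.8503, 0.941, and 0.4799 to 16.02, 21.8, and 21.1 FPKM (log2 fold change 4.26 ± 0.31, adjusted p = 1.1e-08). Glutamate decarboxylase (PH02Gene12466), also chosen after its values were seen, was the most abundant gene of the taurine pathway called lower and went from 118 to 67.3 FPKM (not called with library size scaling). The same pathway includes a plant cysteine oxidase (PH02Gene30206), an oxygen sensor in Arabidopsis, which rose from 7.67 to 22.8 FPKM (summed-fit adjusted p = 0.37).

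The pathways with the largest shares lower were flavone and flavonol biosynthesis (2 of 36 higher and 17 lower, 1 and 5 in the summed fit), linoleic acid metabolism (2 of 21 higher and 8 lower, 0 and 3 in the summed fit, 4 higher and 6 lower with library size scaling), stilbenoid and gingerol biosynthesis (5 of 58 higher and 22 lower, 2 and 4 in the summed fit), ABC transporters (15 of 133 higher and 49 lower, 5 and 11 in the summed fit), vitamin B6 metabolism (1 of 34 higher and 12 lower, 0 and 6 in the summed fit), selenocompound metabolism (3 of 45 higher and 15 lower, 2 and 5 in the summed fit, 4 higher and 5 lower with library size scaling), phenylalanine metabolism (12 of 93 higher and 30 lower, 2 and 8 in the summed fit), and flavonoid biosynthesis (18 of 109 higher and 35 lower, 5 and 5 in the summed fit, 25 higher and 27 lower with library size scaling). For flavonoid biosynthesis, the summed level was 3257 to 3318 FPKM in LT15d and 3571 to 3590 FPKM in LT25d, without TMM scaling. Among ABC transporters, the B family pump PH02Gene37588 fell from 148, 147, and 145 to 25.99, 23.9, and 26.2 FPKM (log2 fold change -2.92 ± 0.40, adjusted p = 8.9e-06). Its near neighbour PH02Gene37590 fell from 81.2 to 18.3 FPKM (summed-fit adjusted p = 0.084). The most abundant DEGs of the selenocompound pathway include methionine synthases, which transfer the methyl group to homocysteine: PH02Gene31571 fell from 442, 406, and 434 to 66.5, 63.03, and 63.6 FPKM (log2 fold change -3.13 ± 0.30, adjusted p = 2.3e-07). PH02Gene36607 fell from 472 to 122 FPKM. In the vitamin B6 pathway an aldo-keto reductase (PH02Gene44833) fell from 1159 to 489.6 FPKM (summed-fit adjusted p = 0.058).

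Among 939 GO terms, the largest shares higher were in endodeoxyribonuclease activity (12 of 22 higher and 0 lower, 8 and 0 in the summed fit), the endoplasmic reticulum lumen (12 of 25 higher and 0 lower, 8 and 0 in the summed fit), glutamine metabolic process (9 of 20 higher and 2 lower, 4 and 1 in the summed fit), light harvesting in photosystem I (13 of 30 higher and 5 lower, 4 and 2 in the summed fit), response to ionizing radiation (9 of 21 higher and 0 lower, 7 and 0 in the summed fit), chitin binding (14 of 33 higher and 7 lower, 4 and 0 in the summed fit), the 90S preribosome (11 of 26 higher and 0 lower, 5 and 0 in the summed fit), and mitotic recombination (11 of 26 higher and 0 lower, 8 and 0 in the summed fit). The glutamine term includes the stem-specific protein TSJT1 (PH02Gene00298), which went from 115, 119, and 112 to 631, 626, and 629 FPKM (log2 fold change 2.05 ± 0.26, adjusted p = 4.3e-06) and rose at 25 °C as well (log2 fold change 2.04). The nuclease term includes a mitochondrial recA homolog (PH02Gene49692), which mends DNA and rose from 5.06 to 21.6 FPKM. Largest shares lower were in xenobiotic transporting ATPase activity (1 of 24 higher and 16 lower, 0 and 4 in the summed fit), drought recovery (2 of 26 higher and 15 lower, 1 and 6 in the summed fit), regulation of root development (5 of 24 higher and 12 lower, 0 and 2 in the summed fit, 6 higher and 7 lower with library size scaling), phenylpropanoid biosynthetic process (7 of 38 higher and 19 lower, 4 and 4 in the summed fit), phenylalanine breakdown (2 of 28 higher and 14 lower, 0 and 4 in the summed fit), threonine phosphorylation (2 of 25 higher and 12 lower, 0 and 1 in the summed fit), enzyme inhibitor activity (4 of 25 higher and 12 lower, 0 and 2 in the summed fit, 6 higher and 6 lower with library size scaling), and negative regulation of transcription (4 of 36 higher and 17 lower, 0 and 6 in the summed fit). In threonine phosphorylation, the CBL-interacting kinase PH02Gene17971, which relays calcium signals, fell from 104, 107, and 104 to 19.01, 19.01, and 19.6 FPKM (log2 fold change -2.85 ± 0.22, adjusted p = 2.2e-08).

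Genes of growth and protein turnover were called in both directions. Of the histone genes, H2AXa (PH02Gene25137) rose from 2.27, 1.97, and 1.74 to 13.8, 14.5, and 15.2 FPKM (log2 fold change 2.46 ± 0.28, adjusted p = 1.2e-06). H1E (PH02Gene36226) rose from 0.518 to 10.6 FPKM. The segregase subunit CDC48 homolog E, which pulls proteins out of complexes, fell in PH02Gene34000 from 242, 232, and 239 to 104, 104, and 105 FPKM (log2 fold change -1.58 ± 0.20, adjusted p = 4.2e-06) and in PH02Gene20860 from 106 to 43.6 FPKM. In the proteasome, 26S regulatory subunit 8 (PH02Gene25241) fell from 178 to 75.1 FPKM. Of the autophagy genes, ATG101 (PH02Gene26866) rose from 8.403 to 30.5 FPKM. ATG11 (PH02Gene04814) fell from 37.2 to 10.3 FPKM. The LEA-type protein SAG21 (PH02Gene40131), listed with ageing genes, fell from 754, 732, and 706 to 184, 178, and 191 FPKM (log2 fold change -2.38 ± 0.28, adjusted p = 2.0e-06). The vacuolar water channel TIP1-1 (PH02Gene03621) fell from 522 to 286 FPKM (summed-fit adjusted p = 0.19, not called with library size scaling).

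Genes of nitrogen assimilation and transport were called in both directions. A root-type glutamine synthetase (PH02Gene09906), which fixes ammonium, rose from 4.34, 3.72, and 3.62 to 40.6, 36.5, and 36.9 FPKM (log2 fold change 2.89 ± 0.82, adjusted p = 0.0061, summed-fit adjusted p = 0.30). A further asparagine synthetase (PH02Gene23545) rose from 0.557 to 11.7 FPKM (summed-fit adjusted p = 0.12). The nitrate and peptide transporter NRT1/PTR 3.1 (PH02Gene22738) fell from 12.4, 11.3, and 11.2 to 1.66, 1.39, and 1.56 FPKM (log2 fold change -3.32 ± 0.43, adjusted p = 5.0e-06). Vacuolar amino acid transporter 1 (PH02Gene21240) fell from 11.8 to 2.503 FPKM. Ammonium transporter 3 member 2 (PH02Gene34462) fell from 23.1 to 6.39 FPKM (summed-fit adjusted p = 0.05).

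Markers of cell types that culm tissue can hold, chosen by words in the gene descriptions and not checked for specificity, moved as follows. No separate marker list was made for the green cortex. Summed levels are FPKM without TMM scaling, whose log2 ratio lies about 0.44 above a TMM-scaled log2 fold change. Epidermis and cuticle markers had 23 of 99 members tested called higher and 11 lower (median log2 fold change 0.23, 9 higher and 6 lower in the summed fit), with summed levels of 836 to 854 FPKM in LT15d and 1121 to 1136 FPKM in LT25d. Secondary wall markers had 2 of 16 members tested called higher and 6 lower (median log2 fold change -0.50, 0 higher and 1 lower in the summed fit, 3 higher and 4 lower with library size scaling), with summed levels of 103 to 111 FPKM in LT15d and 129 to 131 FPKM in LT25d. Meristem markers had 1 of 26 members tested called higher and 5 lower (median log2 fold change -0.43, 0 higher and 1 lower in the summed fit, 5 higher and 1 lower with library size scaling), with summed levels of 768 to 781 FPKM in LT15d and 674 to 696 FPKM in LT25d. Phloem markers had 0 of 5 members tested called higher and 1 lower (median log2 fold change 0.02), with summed levels of 45.9 to 48.1 FPKM in LT15d and 49.5 to 53.1 FPKM in LT25d, and the 5 root markers summed to 1.39 to 2.48 FPKM in LT15d and 1.05 to 2.05 FPKM in LT25d. In bulk culm RNA, fewer cells of a type and less RNA per cell cannot be told apart, and the part of such shifts in the changes above was not tested.

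The same 10 days at 25 °C changed fewer genes, 2875 higher (9.61%) and 2959 lower (9.89%) in RT25d than in RT15d. In the summed fit they were 788 (2.63%) and 1305 (4.36%). Of the genes higher in cold, 951 were also higher at 25 °C, 259 lower, and 3819 not called there; of those lower in cold, 1084 were also lower, 375 higher, and 3395 not called. The difference between the temperatures was tested itself, as the change at 4 °C minus that at 25 °C, and was more positive at 4 °C in 4491 genes (15.0%) and more negative in 4386 (14.7%). In the summed fit these counts were 670 (2.24%) and 684 (2.29%), and with library size scaling 6738 (22.5%) and 2937 (9.82%). Of the 9883 DEGs of the cold comparison, 5551 differed between the temperatures. In cytosolic ribosomal proteins, the difference was more positive at 4 °C in 73 of 283 members and more negative in 1 (14 and 0 in the summed fit). In light harvesting and photosystem proteins it was more positive in 23 of 43 members and more negative in 2 (1 and 1 in the summed fit). At 25 °C, 2 members of this list were called higher and 23 lower (median log2 fold change -1.20). The RT25d libraries lay far apart in its summed level, at 271 to 1139 FPKM. In the starch list it was more positive in 21 of 67 members and more negative in 9 (6 and 1 in the summed fit), with 30 members called lower at 25 °C. In lignin monomers it was more negative in 31 of 105 members and more positive in 17 (5 and 0 in the summed fit, 22 and 21 with library size scaling), with 23 called lower at 25 °C.

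**Figure D5:**
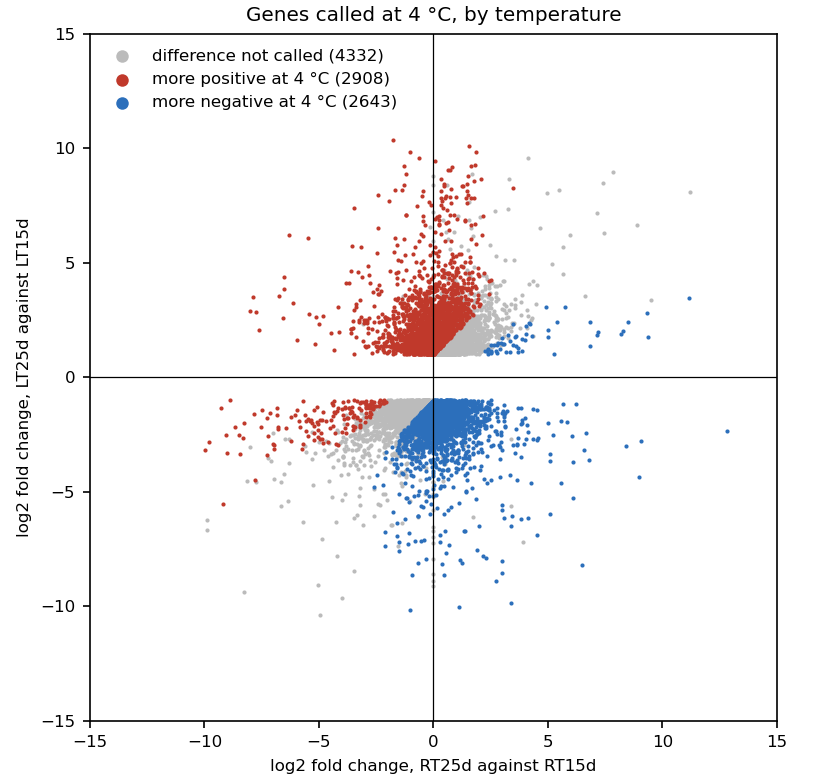
The 9883 genes called in LT25d against LT15d, with their log2 fold change at 25 °C (RT25d against RT15d) across and at 4 °C upwards. Red and blue mark genes whose change was more positive (2908) or more negative (2643) at 4 °C by the test of the difference, and grey those for which it was not called. Most points lie in a vertical band around 0 at 25 °C.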

How the data were processed

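RNA of Pn culms (7 groups, 3 libraries each) was sequenced by the authors, and 1 deposited table of 42460 genes holds the deposited FPKM and the deposited estimated counts of each library. Per the study's methods, the authors mapped reads to the P. edulis genome with HISAT2, assembled them with StringTie, and took FPKM from ballgown, while the submitters' processing notes name cutadapt, FastQC, and Salmon, so which tool made the counts is not known here. Libraries were made from amplified cDNA, whether counting used strand is not given, and near-identical copies of a gene may share reads. Library totals ran from 33957497 to 50338658 counts.

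Estimated counts, whole as deposited, were tested with edgeR 4.0.16 (quasi-likelihood test, TMM scaling, 1 term per group over all 21 libraries) in 29913 genes with at least 1 FPKM in at least 3 libraries, with Benjamini-Hochberg adjustment. Apart from those marked as summed-fit adjusted p, every adjusted p in the text is from this test. Each SE is the log2 fold change divided by the root of its F value. A call needed an adjusted p of at most 0.05 and a fold change of at least 2. No paired term was used. In simulated data over these 29913 genes for LT25d against LT15d, the same fit recovered 92 of 100 genes changed by 2 on the log2 scale. It recovered 26 of 100 changed by 1, a size at the call threshold itself, with 4 false calls. The simulation gave all groups the same base levels and changed only a few well-counted genes. It cannot give the error rate of the real comparison, in which 33.0% of the genes were called. Alternatives were DESeq2 1.42.0 and limma 3.58.1 (log2 of FPKM plus 1 or 0.1), other scaling, other filters, counts divided by 4, fewer libraries, and summed libraries. Python 3.11.15 and R 4.3.3 were used.

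The genes and lists were chosen with earlier results of these data known. The text names the 10 largest rises and falls among called genes. These had groups that do not overlap, at least 10 FPKM in the higher group, and a named protein. It also names up to 3 members of each list per direction by the same conditions and the largest change. The 5 most abundant genes of each group and all tested members of the serotonin and melatonin list are named too. So are called members of the 8 KEGG pathways and 8 GO terms with the largest share in each direction (20 to 3000 genes tested). Other genes are given as chosen after their values were seen. The 42 lists and 5 marker lists were built by words in the gene descriptions and hold some genes of another role, such as chaperonins of Rubisco under carbon fixation or RPM1-interacting proteins under NLR receptors. The authors' own comparisons were not used.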

Additional observations from a re-analysis of the deposited data

Results flagged for a closer look

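The change from day 15 to day 25 differed between the temperatures, by the edgeR test of the difference, in 4491 genes to the positive and 4386 genes to the negative side at 4 °C. Among the genes named above, the following were called in opposite directions at the 2 temperatures, and each value is the log2 fold change at 4 °C minus that at 25 °C. They are 22 genes, and the difference was also called in the summed fit for 13 of them.

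Rises in cold against falls at 25 °C were found in chaperones, the 24.1 kDa (PH02Gene10746, 9.30), 17.9 kDa (PH02Gene03497, 5.40), and 16.9 kDa (PH02Gene22220, 5.26) heat shock proteins. In nitrogen and starch use, they were found in asparagine synthetase (PH02Gene03391, 7.88), beta-amylase 3 (PH02Gene32320, 3.23), and inactive beta-amylase 9 (PH02Gene10442, 3.04). Wax enzymes did the same, with the KCS6 copies PH02Gene50954 (4.49) and PH02Gene11749 (4.43) and the enoyl-CoA reductase PH02Gene04067 (2.22), as did the monoterpenoid pathway gene PH02Gene02076 (3.20). In the chloroplast, cab-PhE9 (PH02Gene42040, 3.54) and protochlorophyllide reductase B (PH02Gene14847, 2.65) belong here. Polyphenol oxidase PH02Gene01841 had the largest difference of these (10.91), with 1.25 FPKM in RT15d and 0.0132 FPKM in RT25d. Both RT25d and LT15d lay near 0 for this gene, so the size of its difference is not well determined.

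Falls in cold against rises at 25 °C were found in cinnamoyl-CoA reductase 1 (PH02Gene02696, -10.18) and the PAL gene PH02Gene27016 (-3.04), in folate use (methylenetetrahydrofolate reductase, PH02Gene29163, -4.25), in ethylene synthesis (PH02Gene02494, -8.82) and the jasmonate repressor TIFY 10c (PH02Gene03055, -2.54), and in the phosphatase PH02Gene44561 (-4.22). LHCII type 1 (PH02Gene45538, -4.42), thaumatin-like protein 1b (PH02Gene43141, -3.97), and GIGANTEA (PH02Gene42221, -2.43) completed the set. RT25d, whose replicates lie far apart (median coefficient of variation 13.9%), enters each of these differences, and the part of that spread in them was not tested.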

How the results depend on the processing

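All values here compare LT25d with LT15d unless said otherwise. Counts of higher and lower genes (5029 and 4854) stayed within 1.5 times under DESeq2 (5117 and 5064), median-of-ratios scaling (4963 and 4922), no filter (5495 and 5114), the compared libraries alone (5678 and 4863), and counts divided by 4 (5072 and 4957). Without 1 replicate they were 4725 to 4798 and 4535 to 4641. They moved to 8255 and 2700 with library size scaling only, to 7722 and 2896 with limma on log2(FPKM + 0.1), to 2033 lower with limma on log2(FPKM + 1), to 2626 and 2511 at a mean FPKM of at least 5, where fewer genes are tested, and to 1818 and 1665 in the summed fit, which has fewer libraries. At 25 °C, limma on log2(FPKM + 1) gave 1834 higher, the stricter filter 1544 and 1527, and the summed fit 788 and 1305. For the difference between temperatures, limma on log2(FPKM + 1) gave 2401 more negative, limma on log2(FPKM + 0.1) 7040 and 2869, library size scaling 6738 more positive, the stricter filter 2569 and 2638, and the summed fit 670 and 684.

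Of 42 lists, 12 had more members higher and 29 more lower. These numbers were 22 and 15 with limma on log2(FPKM + 1), 22 and 17 with log2(FPKM + 0.1), and 24 and 14 with library size scaling, and 17 lists had more lower in the summed fit. KEGG and GO terms with more higher or lower (422 and 559) came to 818 and 181, 892 and 135, and 915 and 109 under the first 3 of these settings. FPKM and library size scaling share the total count as divisor, and other causes were not tested.

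With the replicate number as a block, 4989 genes were higher and 4835 lower. Deviations from the group means correlated at -0.048 to -0.007 for equal and -0.023 to 0.041 for other numbers. Since these deviations lie close to counting noise, they cannot show whether equal numbers pair the libraries. Of the 328 genes eligible for naming or chosen later, 153 were no longer called in the summed fit, 31 with library size scaling, and 5 to 9 without 1 replicate. None of these genes reversed its direction, and higher calls outnumbered lower ones over all genes in every setting. This did not hold for the other 2 comparisons. At 25 °C, 2875 higher and 2959 lower became 3406 and 2591 with library size scaling. For the difference between temperatures, 4491 more positive and 4386 more negative became 670 and 684 in the summed fit. Depth limits low genes such as PH02Gene43659 and PH02Gene07987, and 188 called genes were at 0 counts in all libraries of a group, so that no fold is given for them.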
